A study of Homo sapiens with 12 samples.

Results

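The genes described here encode the collagens, the laminins, the integrin subunits and fibronectin. They were taken from the count table by symbol: every protein-coding gene named as a collagen chain, a laminin chain or an integrin subunit, and FN1. The rule found 84 of 63677 rows, made up of 44 collagens, 12 laminins, 27 integrins and FN1. ITGB3BP and the ITGB1BP genes, which encode binding proteins, were left out, while ITGBL1, a secreted integrin beta-like protein that is no receptor subunit, matched by name and is counted among the integrins but lay below the level needed to be described. Of the 84 genes, 57 reached 0.5 CPM (read counts scaled to library size) in 3 or more libraries and are described: 28 collagens, 9 laminins, 19 integrins and FN1.

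RNA was sequenced from LNCaP, an established line of androgen-sensitive human prostate cancer cells, in 4 groups of 3 libraries. A vector control carrying pLPLUC was set beside cells that overexpress USP22, and cells with a control shRNA were set beside cells with the USP22 shRNA shUSP22-4693. USP22 is the ubiquitin protease of the SAGA transcriptional coactivator. All 4 groups grew in medium containing hormone, and both shRNA groups, but neither of the other groups, were given doxycycline for 5 days at 1 ug/mL, renewed every 48 hours. Depletion thus rests on 1 shRNA, and the labels do not say whether any line is a clone. Nor do they say whether replicates came from separate cultures; p-values then reflect only how much these samples scattered, which may be technical.

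Collagens, laminins and fibronectin are secreted proteins of the extracellular matrix. Laminins are trimers of an alpha, a beta and a gamma chain, and with type IV collagen they build the basement membrane on which epithelial cells rest; the fibrillar collagens and type VI collagen belong mainly to the connective tissue beneath it. Integrins are the receptors that hold cells to this matrix, each a pair of an alpha and a beta subunit whose combination sets the ligand. In the prostate, basal cells sit between the luminal cells and the basement membrane, and prostate carcinomas lose several of the laminin and integrin chains of that layer.

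The libraries held between 77607469 and 103690001 counted reads, of which the 84 genes took from 0.303% to 0.464%. USP22 followed the labels, at 512 ± 45.9 CPM in the vector control, 1466 ± 52.2 after overexpression, 478 ± 3.65 in the shRNA control and 258 ± 7.38 after depletion (SD, n = 3 each). Vector control replicate 3 stood apart from its group: the SD of its log2 values around its group mates was 0.59, where the other vector controls had 0.46 each. All 11 luminal prostate markers were present in every library. With overexpression 1 of them fell, and with depletion 2 rose and 7 fell. Among all genes tested, 4.11% were called with overexpression and 19.8% with depletion at an adjusted p under 0.05. Of 14 markers of fibroblasts and smooth muscle, 8 stayed under 0.5 CPM in every library, among them PDGFRA, DCN, LUM and FAP; the other 6 include COL1A1 and COL3A1, which are themselves described below. Their summed level ran from 28.8 to 38.2 CPM in the vector control, 19.5 to 21.1 after overexpression, 51.9 to 53.9 in the shRNA control and 20.4 to 24.7 after depletion. ACTA2, smooth muscle actin, made up most of that movement, with means of 18.6, 6.21, 33.8 and 4.72 CPM in the same order. The sum was lower in every treated library than in every library of its control. Of the 7 genes of this list that were tested, 1 fell with overexpression, and 1 rose and 2 fell with depletion, with median log2 values of 0.09 and 0.30, so the list's median and its sum differ in direction. Of 8 endothelial markers VWF, EMCN and CLDN5 reached 0.5 CPM in 3 or more libraries and PECAM1 had no read. Only CSF1R of 11 blood cell markers reached that level. So did KRT14, S100A2 and VIM of 8 markers of basal epithelium and other epithelial lines. KRT5 and TP63 of that list reached at most 0.0244 and 0.0233 CPM. The summed endothelial level ran from 9.11 to 10.5 CPM in the shRNA control and from 13.5 to 16 CPM after depletion. VWF had means of 6.98 and 13 CPM in these groups, while EMCN went down from 2.07 to 0.675 CPM. Of the 4 endothelial markers tested, 1 was called higher and 1 lower with depletion. The sum of the basal and other epithelial list ran from 10.8 to 11.8 CPM in the shRNA control and from 8.49 to 9.07 CPM after depletion. VIM was its largest part, with means of 6.69 and 4.89 CPM. With overexpression both sums overlapped the vector control. The summed blood cell level lay between 1.27 and 2.26 CPM in all libraries. The part of these lists in the results was not tested. In bulk RNA, fewer cells of a type and less RNA per cell cannot be told apart.

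Most of the genes called were lower, with raised as with lowered USP22, and lowered USP22 gave more calls. With overexpression, 10 of the 57 genes passed edgeR's quasi-likelihood test at an adjusted p under 0.05 (17.5%), 1 higher and 9 lower. The share over all 26076 genes tested was 4.11% (1.51% higher and 2.6% lower), and over the 13265 protein-coding genes that met the same CPM minimum it was 6.59%. With depletion, 27 of the 57 passed (47.4%), 6 higher and 21 lower, against 19.8% of all genes tested (9.4% higher and 10.4% lower) and 30.6% of the protein-coding genes. The median log2 fold change (log2 change below) of the 57 genes was -0.17 with overexpression and -0.22 with depletion, where all tested genes had medians of -0.01 and 0.00. The overexpression count depended on the procedure: DESeq2 gave 2 higher and 15 lower (6.83% of all genes), and edgeR without a filter on low counts 2 and 14 (4.64%). A fit of only the 6 libraries compared gave fewer, 6 lower and none higher (1.37% of all genes). Without vector control replicate 3 the counts were 3 higher and 11 lower with overexpression and 8 and 26 with depletion, with 6.85% and 31.1% of all genes called. Of the genes called, 3 changed 2-fold or more with overexpression and 4 with depletion. The libraries of the groups did not overlap for 23 genes with overexpression, where 22.4% of all genes and 29.3% of the protein-coding genes did not, and for 42 with depletion, where 41.8% and 58.1% did not.

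Of the 9 genes that fell with overexpression, 6 were also among the 21 that fell with depletion: COL12A1, COL26A1, COL4A5, ITGA1, LAMA3 and LAMC1. Opposite calls were rare. COL5A1 rose with overexpression and fell with depletion, and FN1 fell with overexpression and rose with depletion. COL7A1 and COL9A2 were called with overexpression and not with depletion. Another 19 genes, 5 higher and 14 lower, were called with depletion and not with overexpression, and 28 were called in neither. The difference of the effects, depletion minus overexpression, passed its own test for 15 genes, 7 higher and 8 lower, against 10.9% of all genes tested (5.98% higher and 4.91% lower) and 17.5% of the protein-coding genes. Of the 19 genes called with depletion and not with overexpression, 8 passed this test.

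**Figure D1:**
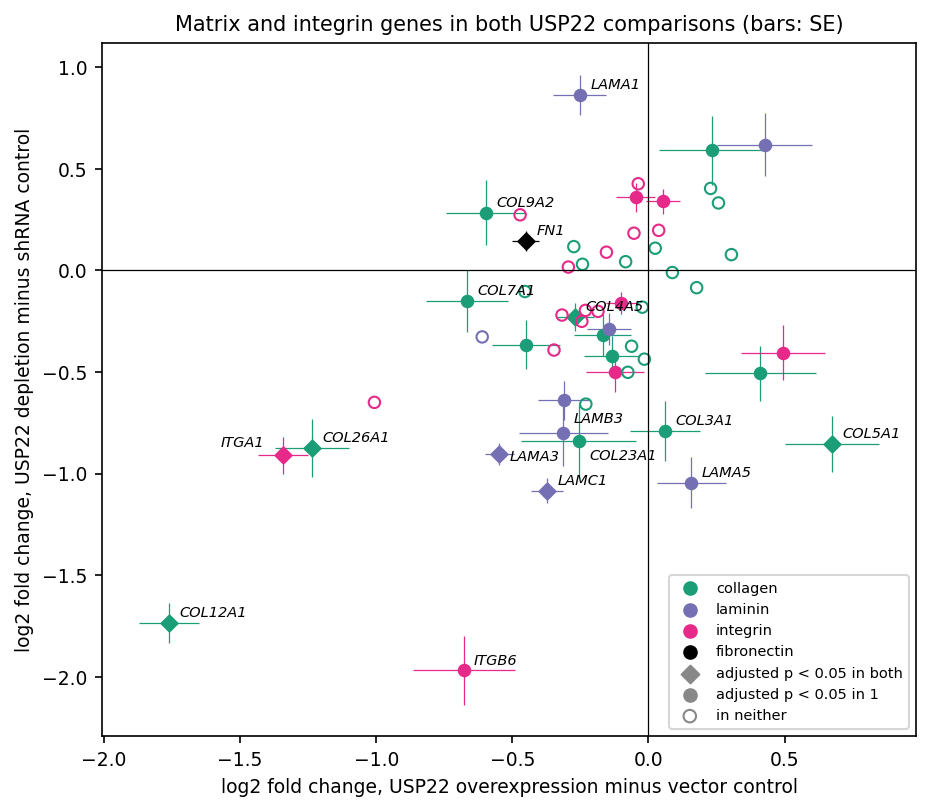
The horizontal axis is the log2 change with USP22 overexpression and the vertical axis that with USP22 depletion, with 1 point for each of the 57 genes and bars of 1 SE on those called at an adjusted p under 0.05. COL12A1, ITGA1, COL26A1, LAMA3 and LAMC1 lie low on both axes, LAMA1 lies highest on the depletion axis at 0.86, and COL5A1 lies lower right.

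Most laminin genes were called with depletion. Of the 9 described chains, 6 fell and 2 rose (88.9% called), and LAMB4 was not called (log2 change -0.33, edgeR adjusted p = 0.483); their median was -0.64. With overexpression 2 of 9 fell and none rose (22.2%). Among all genes tested 19.8% were called with depletion and 4.11% with overexpression, and among the protein-coding genes 30.6% and 6.59%. Laminin genes took 0.16% of the reads in the vector control, 0.126% after overexpression, 0.241% in the shRNA control and 0.125% after depletion.

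LAMC1 encodes the gamma 1 chain, shared by most laminins, and LAMA3 the alpha 3 chain of epithelial basement membranes. These are the laminin genes that fell in both comparisons, and the 250 bases before their start sites are shown so that their sequence stands beside those values. The windows come from the RefSeq table of GRCh38.p14, on the plus strand for both genes. Counts per gene do not show which start site of a gene was used. Capitals mark matches, on either strand, to GGGCGG (the GC box core), to TGANTCA (bound by AP-1), to CAGAC (a SMAD element), to CCAAT (the box of that name), to TATAAA (the TATA box core) and to CATTCC (bound by TEAD), as well as to the CArG box. No match overlapped another here. The LAMC1 window is chr1:183023170-183023419 and the LAMA3 window chr18:23872770-23873019.
LAMC1: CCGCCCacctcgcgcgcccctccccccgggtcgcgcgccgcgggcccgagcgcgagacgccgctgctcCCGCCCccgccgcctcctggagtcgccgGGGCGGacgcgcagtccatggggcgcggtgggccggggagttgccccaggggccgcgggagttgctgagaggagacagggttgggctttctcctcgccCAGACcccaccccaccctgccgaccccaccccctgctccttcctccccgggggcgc
LAMA3: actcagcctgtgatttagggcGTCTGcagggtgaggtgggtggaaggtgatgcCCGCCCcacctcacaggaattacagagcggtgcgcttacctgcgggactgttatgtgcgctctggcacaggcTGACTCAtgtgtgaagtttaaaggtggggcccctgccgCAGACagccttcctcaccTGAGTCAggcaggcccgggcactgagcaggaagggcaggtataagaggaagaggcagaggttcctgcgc

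The LAMC1 window held 3 matches to the GC box core, which 42.6% of all 35116 windows of the same length hold at least once, and 1 to the SMAD element, held by 38% of windows. The LAMA3 window held 2 AP-1 matches, TGACTCA 125 bases and TGAGTCA 69 bases before the start, where 6.57% of windows hold 1 or more. It also held 1 GC box core and 2 SMAD elements. A match is a description of letters and not a measured site.

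LAMC1 had the highest level per length of the whole set, a mean of 109 CPM per kb of annotated exon. Its vector control libraries held 877, 903 and 992 CPM, and its overexpression libraries 733, 695 and 712 CPM. The shRNA controls held 1404, 1391 and 1352 CPM and the depletion libraries 664, 685 and 608 CPM. Every treated library lay below every library of its control in both comparisons, and the shRNA controls were the highest of all. LAMC1 fell to 0.772 of the control level with overexpression (log2 change -0.37, SE 0.06, edgeR adjusted p = 0.00153). With depletion it fell to 0.472 of the control level (-1.08, SE 0.06, edgeR adjusted p = 3.98e-09).

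LAMA3 stood at 465, 463 and 511 CPM in the vector control, and the overexpression libraries stood at 332, 324 and 329 CPM. In the shRNA control it stood at 309, 313 and 317 CPM, and after depletion at 168, 161 and 172 CPM. The groups did not overlap in either comparison, and the depletion libraries were the lowest. The log2 change was -0.55 with overexpression (SE 0.05, edgeR adjusted p = 1.19e-05) and -0.90 with depletion (SE 0.05, edgeR adjusted p = 9.63e-09).

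LAMA5, the alpha 5 chain of most adult basement membranes, fell with depletion and not with overexpression. The vector controls held 53.0, 59.6 and 75.9 CPM and the overexpression libraries 65.1, 66.9 and 78.3 CPM, which overlapped (log2 change 0.16, edgeR adjusted p = 0.539). The shRNA controls held 183, 187 and 211 CPM and the depletion libraries 87.1, 83.1 and 111 CPM. The shRNA controls thus lay far above the other groups, and depletion brought LAMA5 to 0.484 of their level (log2 change -1.05, SE 0.13, edgeR adjusted p = 2.08e-05). The effects differed by -1.20 (SE 0.18, edgeR adjusted p = 0.000411).

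LAMA1, the alpha 1 chain best known from embryonic basement membranes, went the other way. It stood at 12.6, 14.3 and 15.8 CPM in the vector control, and the overexpression libraries stood at 11.7, 11.1 and 12.9 CPM, which overlapped. The shRNA controls stood at 4.63, 5.6 and 5.45 CPM and the depletion libraries at 9.6, 9.78 and 9.11 CPM. The shRNA controls were the lowest and every depletion library lay above them, a 1.82-fold rise (log2 change 0.86, SE 0.10, edgeR adjusted p = 1.39e-05). The depletion effect exceeded the overexpression effect by 1.12 (SE 0.14, edgeR adjusted p = 8.95e-05). An antisense gene covers 10.3% of its exonic length in GENCODE 29, with a mean of 0.0237 CPM.

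LAMB2, the beta 2 chain, was the most abundant beta chain, at 36.6 CPM per kb. Its vector controls held 181, 179 and 243 CPM and its overexpression libraries 159, 156 and 172 CPM. The shRNA controls held 413, 384 and 375 CPM and the depletion libraries 243, 269 and 240 CPM. Each treated group lay wholly below its control. The depletion change passed (log2 change -0.64, SE 0.10, edgeR adjusted p = 0.000169) and the overexpression change did not (-0.31, SE 0.10, edgeR adjusted p = 0.0869). Without vector control replicate 1 or 2 the overexpression value was -0.38 or -0.39 and passed (edgeR adjusted p = 0.0405 and 0.0348). It also passed with DESeq2 (-0.31, DESeq2 adjusted p = 0.04) and without a filter on low counts (-0.29, edgeR adjusted p = 0.00112).

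The remaining laminin chains were low. LAMB3, the beta 3 chain, fell from 2.79 ± 0.187 to 1.6 ± 0.196 CPM with depletion (edgeR adjusted p = 0.00203), and LAMC3 rose from 2.21 ± 0.176 to 3.4 ± 0.193 CPM (edgeR adjusted p = 0.00947). LAMB1 fell from 12.6 ± 0.816 to 10.3 ± 0.356 CPM (edgeR adjusted p = 0.0177; SD, n = 3). The LAMB1 call was lost without depletion replicate 1 or 2, or without shRNA control replicate 1 or 2, with an adjusted p of up to 0.143.

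**Figure D2:**
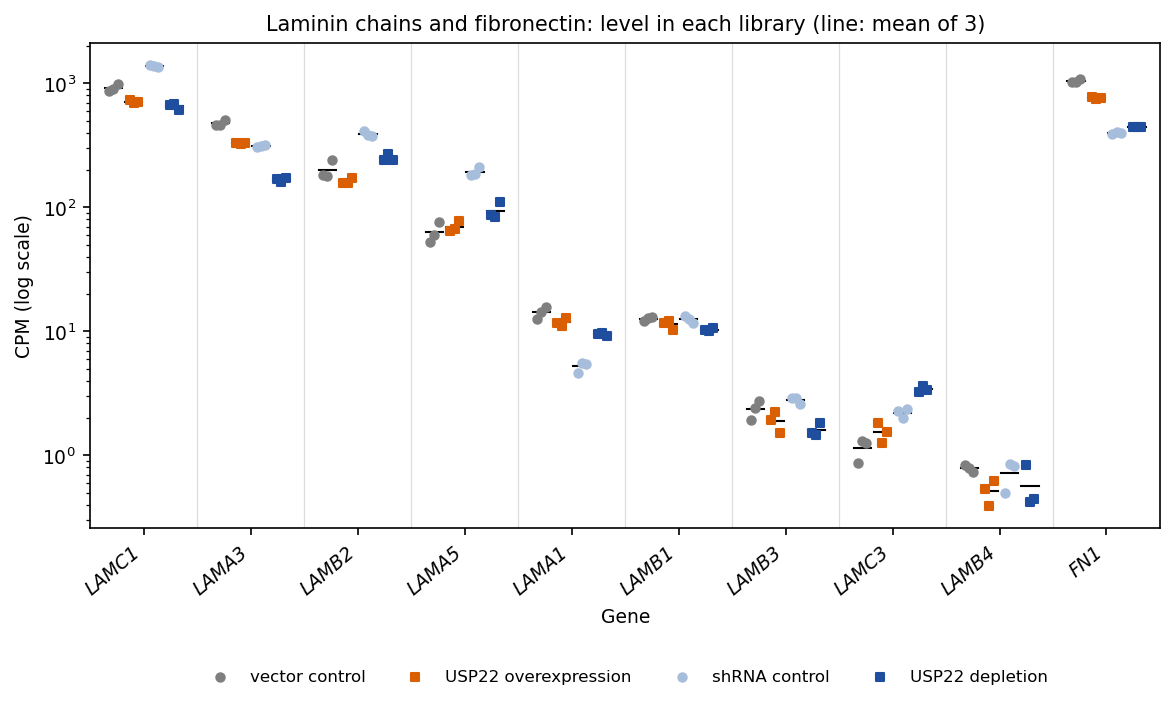
The vertical axis is CPM on a log scale and each symbol is 1 library, with a line at the mean of the 3 libraries of a group; genes are in columns. LAMC1, LAMA3, LAMB2 and LAMA5 sit lower after depletion than in the shRNA control, while LAMA1 and LAMC3 sit higher.

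Levels per kb rest on the length of all annotated exons of a gene together, not on that of the transcripts expressed. The size of a chain's share therefore depends on the annotation, while the same share can be followed across groups. LAMA3 gave 86.1 ± 1.44% of the summed laminin alpha level per kb in the vector control and 79.8 ± 1.53% after overexpression. It gave 60.5 ± 1.55% in the shRNA control and 61.5 ± 2.73% after depletion (SD, n = 3 each). LAMA5 gave 11.5%, 17.5%, 38.4% and 35.2% in the same order, and LAMA1 2.35%, 2.68%, 0.934% and 3.24%. The shares of LAMA3 and LAMA5 thus differed more between the controls than within either comparison, while that of LAMA1 differed most between the shRNA control and depletion. LAMB2 gave between 92.6% and 96.2% of the beta chains in the group means.

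Fibronectin, the matrix glycoprotein bound by alpha 5 beta 1 and the alpha V integrins, was among the most abundant of the set, at 38.2 CPM per kb. FN1 stood at 1023, 1021 and 1083 CPM in the vector control, and the overexpression libraries stood at 777, 747 and 764 CPM. In the shRNA control it stood at 393, 409 and 399 CPM and after depletion at 443, 443 and 442 CPM. The overexpression libraries lay below every vector control and the depletion libraries above every shRNA control, and all libraries of the vector pair lay above all libraries of the shRNA pair. The fall with overexpression had a log2 change of -0.45 (SE 0.05, edgeR adjusted p = 3.15e-05), and the rise with depletion one of 0.14 (SE 0.05, edgeR adjusted p = 0.0465). The rise lost its call without any 1 of 8 libraries (adjusted p of up to 0.108): depletion replicate 1, overexpression replicates 1, 2 and 3, shRNA control replicates 1 and 3 and vector control replicates 1 and 2. It was also lost without filtering low counts (0.0506) and with a replicate block (0.054).

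Type IV collagen, the network collagen of basement membranes, is built from chains whose genes lie head to head in pairs. COL4A5, the alpha 5 chain, was by far the most abundant type IV chain, at 16.5 CPM per kb. The 250 bases before COL4A5 and before COL4A3 are shown because each faces a second chain gene: the start sites of COL4A5 and COL4A6 lie 379 bases apart, with a second COL4A6 start 1415 bases away, and those of COL4A3 and COL4A4 lie 418 bases apart. Capitals mark the stretch that the facing gene's 250-base window covers on the other strand, 121 bases for COL4A5 and 82 for COL4A3. Both are RefSeq windows of GRCh38.p14 on the plus strand, COL4A5 at chrX:108439588-108439837 and COL4A3 at chr2:227164374-227164623.
COL4A5: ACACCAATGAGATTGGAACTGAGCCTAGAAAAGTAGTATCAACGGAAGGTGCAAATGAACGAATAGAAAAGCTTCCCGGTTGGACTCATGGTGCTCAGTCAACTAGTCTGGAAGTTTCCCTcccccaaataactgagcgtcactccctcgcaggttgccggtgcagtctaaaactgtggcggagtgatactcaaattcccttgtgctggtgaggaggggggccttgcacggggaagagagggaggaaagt
COL4A3: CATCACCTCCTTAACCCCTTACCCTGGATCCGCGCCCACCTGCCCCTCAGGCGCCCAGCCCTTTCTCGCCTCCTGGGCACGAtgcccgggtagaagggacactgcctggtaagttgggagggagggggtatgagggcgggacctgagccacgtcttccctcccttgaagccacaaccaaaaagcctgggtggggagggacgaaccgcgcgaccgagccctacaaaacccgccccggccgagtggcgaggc

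Per length, COL4A5 and COL4A6 differed widely in level, at 16.5 and 0.594 CPM per kb, while COL4A3 and COL4A4 were near each other, at 0.186 and 0.147 CPM per kb. COL4A5 stood at 190 ± 20.2, 158 ± 1.45, 236 ± 9.06 and 201 ± 4.17 CPM in the vector control, overexpression, shRNA control and depletion groups (SD, n = 3 each). COL4A6, across the shared stretch, stood at 5.12, 4.32, 6.23 and 6.37 CPM and was called in neither comparison (log2 change -0.24 and 0.03). COL4A3 had means of 0.976, 1.15, 1.85 and 2.8 CPM in the 4 groups, and COL4A4 of 0.998, 1.2, 1.65 and 2.08 CPM.

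COL4A5 fell in both comparisons, by small amounts. Its libraries held 177, 180 and 213 CPM in the vector control and, with overexpression, 156, 159 and 158 CPM. They held 246, 228 and 234 CPM in the shRNA control and 202, 205 and 197 CPM after depletion. The groups did not overlap in either comparison. The log2 change was -0.27 with overexpression (SE 0.07, edgeR adjusted p = 0.0334) and -0.23 with depletion (SE 0.07, edgeR adjusted p = 0.023). Without vector control replicate 3 the former was -0.18 (edgeR adjusted p = 0.0127). The overexpression call was lost without any 1 of the 9 libraries outside the vector control (adjusted p of up to 0.131) and with only the 6 libraries compared (0.204), and the depletion call without any 1 of the 6 libraries compared (up to 0.144). COL4A3 rose with depletion (0.59, SE 0.17, edgeR adjusted p = 0.0216), a call lost without depletion replicate 3 (0.0919) or shRNA control replicate 2 (0.0823).

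Of other collagens of the basement membrane zone, COL7A1 was called lower with overexpression only and COL18A1 with depletion only. COL17A1, COL4A2 and COL4A4 were called in neither comparison. COL7A1 encodes the anchoring fibril that ties the basement membrane to the tissue below. It stood at 13.9, 15.3 and 24.5 CPM in the vector control, and the overexpression libraries stood at 10.7, 11.1 and 12 CPM. The shRNA controls stood at 9.86, 9.2 and 9.48 CPM and the depletion libraries at 8.53, 8.97 and 8.19 CPM. Vector control replicate 3 was the highest library, and the treated libraries lay below their controls. The fall with overexpression passed (log2 change -0.67, SE 0.15, edgeR adjusted p = 0.0189) and that with depletion did not (-0.15, edgeR adjusted p = 0.558), though the difference between these effects did not pass either (0.51, edgeR adjusted p = 0.148). That difference passed without a filter on low counts (0.52, edgeR adjusted p = 0.00307) and without vector control replicate 1 (0.67, 0.0345). Without vector control replicate 3 the overexpression value was -0.38 (edgeR adjusted p = 0.00213); without overexpression replicate 1 or 2 its adjusted p was 0.0949 or 0.0846, and with only the 6 libraries compared 0.181.

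COL18A1, whose C-terminal piece is endostatin, fell with depletion from 30 ± 1.53 to 23.3 ± 0.844 CPM (log2 change -0.37, SE 0.12, edgeR adjusted p = 0.0422). SLC19A1 on the opposite strand covers 16.4% of its exonic length, and the strand setting of the counting is not given. The call was lost without any 1 of the 9 libraries outside the vector control (adjusted p of up to 0.144). With overexpression its value was -0.45 (edgeR adjusted p = 0.0542). It was called without vector control replicate 1 (-0.59, 0.00564), replicate 2 (-0.51, 0.0433) or replicate 3 (-0.23, 0.046). DESeq2 also called it (-0.45, DESeq2 adjusted p = 0.00979). So did edgeR without a filter on low counts (-0.43, 8.85e-05) and with a replicate block (-0.44, 0.0442).

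Among the fibrillar collagens, which make the fibers of connective tissue, COL5A1 was the only gene of the set to rise with overexpression. COL5A1 encodes the alpha 1 chain of type V collagen, which sets the width of collagen fibrils. It held 0.724, 0.804 and 1.16 CPM in the vector control and, with overexpression, 1.35, 1.47 and 1.44 CPM. In the shRNA control it held 5.9, 5.78 and 6.09 CPM and after depletion 2.81, 3.19 and 3.86 CPM. None of these groups overlapped its control, and the controls themselves lay far apart. The log2 change was 0.68 with overexpression (SE 0.17, edgeR adjusted p = 0.037) and -0.85 with depletion (SE 0.14, edgeR adjusted p = 0.000339). The rise lost its call without overexpression replicate 1, 2 or 3 or vector control replicate 1 or 2 (adjusted p of up to 0.136), with limma voom (0.0644) and with only the 6 libraries compared (0.171).

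No other fibrillar chain was called with overexpression. COL3A1 fell with depletion from 1.36 ± 0.109 to 0.785 ± 0.12 CPM (log2 change -0.79, edgeR adjusted p = 0.00117). COL27A1 fell from 4.47 ± 0.244 to 3.15 ± 0.284 CPM (-0.51, edgeR adjusted p = 0.0128; SD, n = 3), a call lost without depletion replicate 1 (0.0866), shRNA control replicate 1 (0.0625) or shRNA control replicate 3 (0.0611). COL1A1, the main chain of type I collagen, was called in neither (-0.02 and -0.18, edgeR adjusted p = 0.959 and 0.415). Nor were COL5A2 and COL24A1. COL11A2 missed the threshold with depletion (-0.66, edgeR adjusted p = 0.0511). It was called without overexpression replicate 2 (0.0477) or 3 (0.0324) or vector control replicate 2 (0.041) or 3 (0.0108). It was also called with DESeq2 (adjusted p = 0.0305), limma voom (0.0377), a replicate block (0.0443) and only the 6 libraries compared (0.00755). The same held without a filter on low counts (0.0128) and with a minimum of 1 CPM (0.0419).

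COL12A1, a collagen that lies on the surface of fibrils, had the largest fall of any called member with overexpression and the largest of any collagen with depletion. Its libraries held 6.39, 5.59 and 5.1 CPM in the vector control and, with overexpression, 1.56, 1.86 and 1.62 CPM. They held 15.3, 13.7 and 14.9 CPM in the shRNA control and 4.27, 4.64 and 4.28 CPM after depletion. Both treated groups lay well under their controls, though the depletion libraries stood higher than the overexpression ones. COL12A1 fell to 0.295 of the control level with overexpression (log2 change -1.76, SE 0.11, edgeR adjusted p = 5.28e-08) and to 0.3 with depletion (-1.74, SE 0.10, edgeR adjusted p = 4.57e-09). The difference of these effects was 0.03 (SE 0.14, edgeR adjusted p = 0.941).

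The window before the COL12A1 start is shown because this gene had the largest fall of any called member with overexpression, at chr6:75206054-75206303 on the minus strand (RefSeq, GRCh38.p14), with matches to the same motifs in capitals.
COL12A1: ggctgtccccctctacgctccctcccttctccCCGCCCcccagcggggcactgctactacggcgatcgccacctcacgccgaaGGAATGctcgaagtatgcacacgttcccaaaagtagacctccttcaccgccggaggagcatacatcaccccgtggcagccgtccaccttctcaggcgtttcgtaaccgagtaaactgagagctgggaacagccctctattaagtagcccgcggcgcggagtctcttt

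It held 1 GC box core and 1 TEAD match, GGAATG on the strand shown, 167 bases before the start; 11.9% of windows hold a TEAD match. Among the other members that fell in both comparisons, the windows of COL26A1 and ITGA1 held 1 SMAD element each and no other motif searched. That of COL4A5 held 2 CCAAT boxes, which 32% of windows hold, and 1 SMAD element.

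COL9A2, a chain of fibril-associated type IX collagen, stood at 7.86, 6.82 and 11.2 CPM in the vector control, and the overexpression libraries stood at 5.31, 5.2 and 6.59 CPM. The shRNA controls stood at 2.19, 2.26 and 2.23 CPM and the depletion libraries at 2.6, 2.9 and 2.63 CPM. Overexpression lay below its control and depletion above, with the vector control the highest group. The fall with overexpression passed (log2 change -0.60, SE 0.15, edgeR adjusted p = 0.0328), and the depletion value did not (0.28, SE 0.16, edgeR adjusted p = 0.257). Without vector control replicate 3 the former was -0.37 (edgeR adjusted p = 0.0432). Its call was lost without overexpression replicate 1 or 2, depletion replicate 1 or 3 or shRNA control replicate 1 or 2 (adjusted p of up to 0.157), and with only the 6 libraries compared (0.205).

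COL26A1 is a collagen first described in developing reproductive tissue. It stood at 4.66, 4.35 and 6.05 CPM in the vector control, and the overexpression libraries stood at 1.92, 2.08 and 2.37 CPM. The shRNA controls held 2.8, 2.56 and 2.63 CPM and the depletion libraries 1.35, 1.6 and 1.42 CPM. Each treated group lay wholly below its control. The log2 change was -1.24 with overexpression (SE 0.14, edgeR adjusted p = 3.97e-05) and -0.88 with depletion (SE 0.14, edgeR adjusted p = 0.000327).

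COL23A1, a transmembrane collagen, stood at 0.813, 0.756 and 1.01 CPM in the vector control, and the overexpression libraries stood at 0.784, 0.645 and 0.725 CPM. In the shRNA control it stood at 2.94, 2.32 and 2.68 CPM and after depletion at 1.36, 1.91 and 1.15 CPM. The former pair of groups overlapped (log2 change -0.26, edgeR adjusted p = 0.554), and the latter did not. The fall with depletion had a log2 change of -0.84 (SE 0.18, edgeR adjusted p = 0.00302).

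COL6A1, a chain of the beaded filaments of type VI collagen, was the most abundant collagen per length, at 29.4 CPM per kb. It stood at 86.5, 90.5 and 125 CPM in the vector control, and the overexpression libraries held 88.3, 91.8 and 95.5 CPM. The shRNA controls held 257, 251 and 240 CPM and the depletion libraries 185, 192 and 180 CPM. Overexpression overlapped its control (log2 change -0.13, edgeR adjusted p = 0.516), and depletion lay below (-0.42, SE 0.10, edgeR adjusted p = 0.00721). COL6A2 fell with depletion from 115 ± 1.4 to 92.5 ± 5.36 CPM (-0.32, edgeR adjusted p = 0.0399). That call was lost without any 1 of the 9 libraries outside the vector control, with an adjusted p of up to 0.151.

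**Figure D3:**
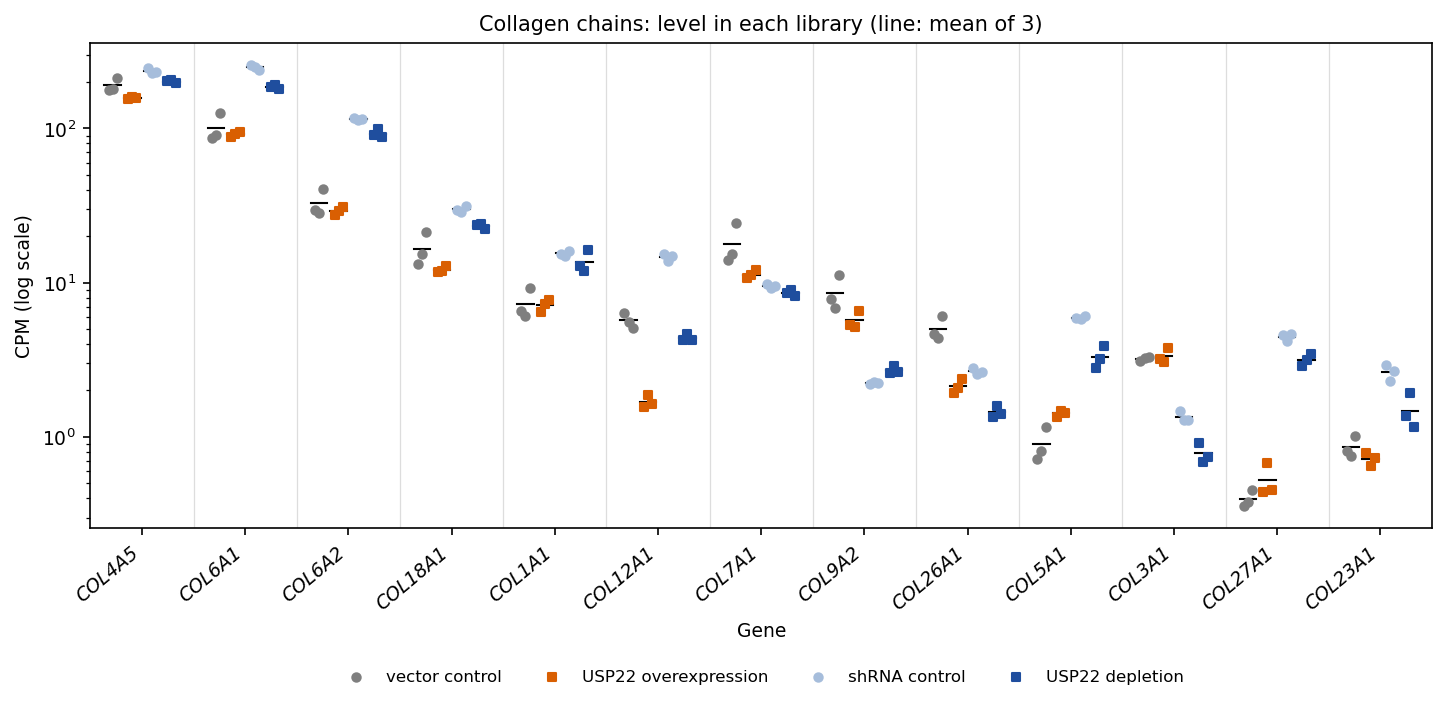
The vertical axis is CPM on a log scale and each symbol is 1 library of a collagen gene, with a line at the mean of the 3 libraries of a group. COL12A1 and COL26A1 sit lower in both treated groups than in their controls, and COL5A1 rises with overexpression and falls with depletion; the shRNA control sits above the vector control for COL6A1, COL6A2, COL5A1 and COL27A1.

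Several collagens were read with a partner chain below the level needed to be described. Type I collagen normally joins chains of COL1A1 and COL1A2; COL1A1 ran from 6.06 to 16.4 CPM and had a mean of 1.11 CPM per kb, while COL1A2 had 2 reads over the 12 libraries. COL4A1 had 25 reads in all and 0.00177 CPM per kb, where its usual partner COL4A2 had 0.0636 CPM per kb. Type VI filaments usually need COL6A1, COL6A2 and a further chain; COL6A3 had 117 reads in all and 0.00568 CPM per kb, COL6A5 had 4 reads, and COL6A6 had 0.129 CPM per kb, against 29.4 for COL6A1. COL9A1 had 4 reads. COL5A3 had 11, while the other type V chains, COL5A1 and COL5A2, were both described, at 0.258 and 1.21 CPM per kb. Protein chains were not measured.

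Of 13 known laminin trimers, 6 had all 3 chains described: laminin-111, laminin-121, laminin-311, laminin-321, laminin-511 and laminin-521. LAMA2 reached at most 0.359 CPM and LAMA4 at most 0.141 CPM.

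**Figure D4:**
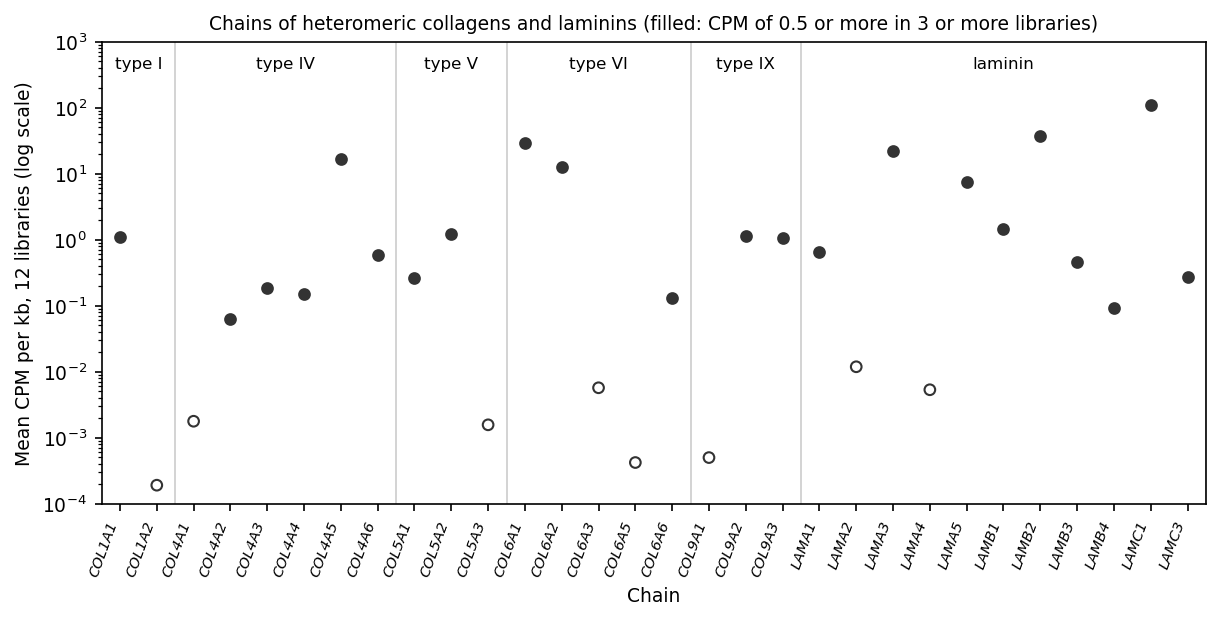
The vertical axis is the mean CPM per kb of exon over the 12 libraries, on a log scale, for chains of type I, IV, V, VI and IX collagen and of 11 laminin genes; filled symbols are chains at 0.5 CPM or more in 3 or more libraries. COL1A2, COL4A1, COL5A3, COL6A3, COL6A5 and COL9A1 lie far below another chain of their type, and LAMC1 is the highest at 109.

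Of the 19 described integrin genes, 1 fell and none rose with overexpression (5.26%), a share near the 4.11% of all genes tested. With depletion 5 fell and 2 rose (36.8%), where 30.6% of the protein-coding genes were called. The median log2 changes were -0.19 and -0.20. ITGB1, the beta 1 subunit with which most alpha subunits pair, gave between 87.2% and 89.9% of the summed beta subunit level per kb. ITGAV gave between 42.7% and 48.9% of the alpha subunits and ITGA6 between 20.3% and 27.7%.

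ITGA1, the alpha 1 subunit of a collagen receptor, was the integrin that fell in both comparisons. It stood at 12.8, 11.8 and 10.2 CPM in the vector control, and the overexpression libraries stood at 4.55, 4.65 and 4.55 CPM. The shRNA controls stood at 8.94, 8.7 and 8.88 CPM and the depletion libraries at 4.99, 4.43 and 4.69 CPM. The treated groups came to about the same low level from different control levels. The log2 change was -1.34 with overexpression (SE 0.09, edgeR adjusted p = 1.44e-07) and -0.91 with depletion (SE 0.09, edgeR adjusted p = 2.63e-06). PELO, which shares 2.56% of the exonic length of ITGA1 on the same strand and has a mean of 78.1 CPM, was called in neither comparison (-0.20 and 0.10, edgeR adjusted p = 0.0683 and 0.284).

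The other described collagen receptors among the integrins were not called lower in either comparison. ITGA2, the alpha 2 subunit, rose with depletion from 14.9 ± 0.606 to 19.1 ± 0.411 CPM (log2 change 0.36, edgeR adjusted p = 0.00207; SD, n = 3) and was not called with overexpression (-0.05, edgeR adjusted p = 0.78). ITGA10 had values of -0.47 with overexpression (edgeR adjusted p = 0.0524) and 0.27 with depletion (0.172), neither called, though the difference between these effects was (0.74, SE 0.18, edgeR adjusted p = 0.0156). With overexpression ITGA10 was called lower with DESeq2 (-0.47, DESeq2 adjusted p = 0.02) and without depletion replicate 3 (-0.45, edgeR adjusted p = 0.0489).

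The laminin receptors split. ITGA6, the alpha 6 subunit, rose with depletion from 62.8 ± 1.95 to 79.5 ± 4.17 CPM (log2 change 0.34, edgeR adjusted p = 0.000991). ITGA3 fell from 22.7 ± 1.18 to 16.1 ± 0.637 CPM (-0.50, edgeR adjusted p = 0.00199; SD, n = 3). ITGB4, the partner of ITGA6 in hemidesmosomes, fell from 5.68 ± 0.455 to 4.3 ± 0.379 CPM (-0.41, edgeR adjusted p = 0.0447). The ITGB4 call was lost without any 1 of the 6 libraries compared, or without overexpression replicate 1 or 3 (adjusted p of up to 0.193). With overexpression the ITGB4 value was 0.49 (edgeR adjusted p = 0.0891), and 0.68 without vector control replicate 3 (0.00364). It was also called higher with DESeq2 (0.50, DESeq2 adjusted p = 0.0237) and without a filter on low counts (0.51, edgeR adjusted p = 0.019). ITGA7 was called in neither.

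ITGB6, the epithelial beta 6 subunit that with alpha V activates latent TGF beta, had the largest fall with depletion. It stood at 0.915, 1.1 and 1.06 CPM in the vector control, and the overexpression libraries stood at 0.523, 0.645 and 0.75 CPM. In the shRNA control it stood at 3.39, 2.97 and 2.85 CPM and after depletion at 0.786, 0.638 and 0.938 CPM. Neither treated group overlapped its control, and the shRNA controls stood above all others. Depletion brought it to 0.255 of the control level (log2 change -1.97, SE 0.17, edgeR adjusted p = 5.84e-07). The overexpression value was -0.68 (SE 0.19, edgeR adjusted p = 0.0544), and without vector control replicate 1 it was -0.76 (0.0491). It was also called with DESeq2 (-0.68, DESeq2 adjusted p = 0.0198) and without a filter on low counts (-0.66, edgeR adjusted p = 0.0428). A noncoding gene on the same strand covers 20.6% of its exonic length.

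ITGB1 itself moved little. It held 411, 405 and 393 CPM in the vector control, and the overexpression libraries held 375, 375 and 378 CPM. The shRNA controls held 397, 402 and 378 CPM and the depletion libraries 351, 371 and 330 CPM. The treated libraries lay slightly below their controls. The log2 change was -0.10 with overexpression (SE 0.05, edgeR adjusted p = 0.335) and -0.16 with depletion (SE 0.05, edgeR adjusted p = 0.0481). Without depletion replicate 3 the latter was -0.09 (0.314), and of the 12 libraries vector control replicate 3 was the only one that could be left out without loss of that call. It was also lost with RLE scaling (0.0779), without filtering low counts (0.203) and with DESeq2 (0.0525).

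Of the subunits of the fibronectin and vitronectin receptors, ITGB1 and ITGB6 fell with depletion, as given above, and ITGAV, ITGA5 and ITGB5 had no call in either comparison. ITGAV, the alpha V subunit, had log2 changes of -0.23 and -0.20 (edgeR adjusted p = 0.0799 and 0.0602), ITGA5 of -0.24 and -0.25 (0.147 and 0.0564) and ITGB5 of -0.19 and -0.20 (0.236 and 0.0962). Without vector control replicate 3, all 3 were called with depletion (adjusted p of 0.00233, 0.000289 and 0.00477) at values of -0.20, -0.25 and -0.20, and ITGAV also with overexpression (-0.30, 0.000559). ITGA5 was also called with overexpression without vector control replicate 1 (-0.34, 0.0353) and with depletion without that library (0.0284). With only the 6 libraries compared, ITGAV, ITGA5 and ITGB5 were called with depletion (edgeR adjusted p = 0.00601, 0.000406 and 0.00311). ITGAV was called with overexpression with DESeq2 (DESeq2 adjusted p = 0.0476) and with a replicate block (edgeR adjusted p = 0.0353). The subunits best known from blood cells stayed low: ITGB2 reached at most 2.08 CPM, ITGAD 0.71 CPM and ITGAL 0.276 CPM, and ITGAM, ITGAX and ITGA4 lay below ITGAL. ITGB7 had 0.677, 0.542, 0.88 and 0.757 CPM per kb in the vector control, overexpression, shRNA control and depletion groups. ITGB7 was called in neither USP22 comparison, and ZNF740 covers 42.1% of its exonic length on the opposite strand. ITGAE, at 28.0 ± 2.09 CPM in the vector control, stood above these. It was called in neither comparison, with a depletion value of 0.20 with all libraries (edgeR adjusted p = 0.103). With depletion it was called without depletion replicate 3 (0.28, 0.0368) and without vector control replicate 3 (0.20, 0.0254). It was also called there without a filter on low counts (0.22, 0.0494) and with only the 6 libraries compared (0.20, 0.0259). HASPIN, on the opposite strand over 6.41% of its exonic length, rose with depletion (0.59, edgeR adjusted p = 2.13e-05).

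**Figure D5:**
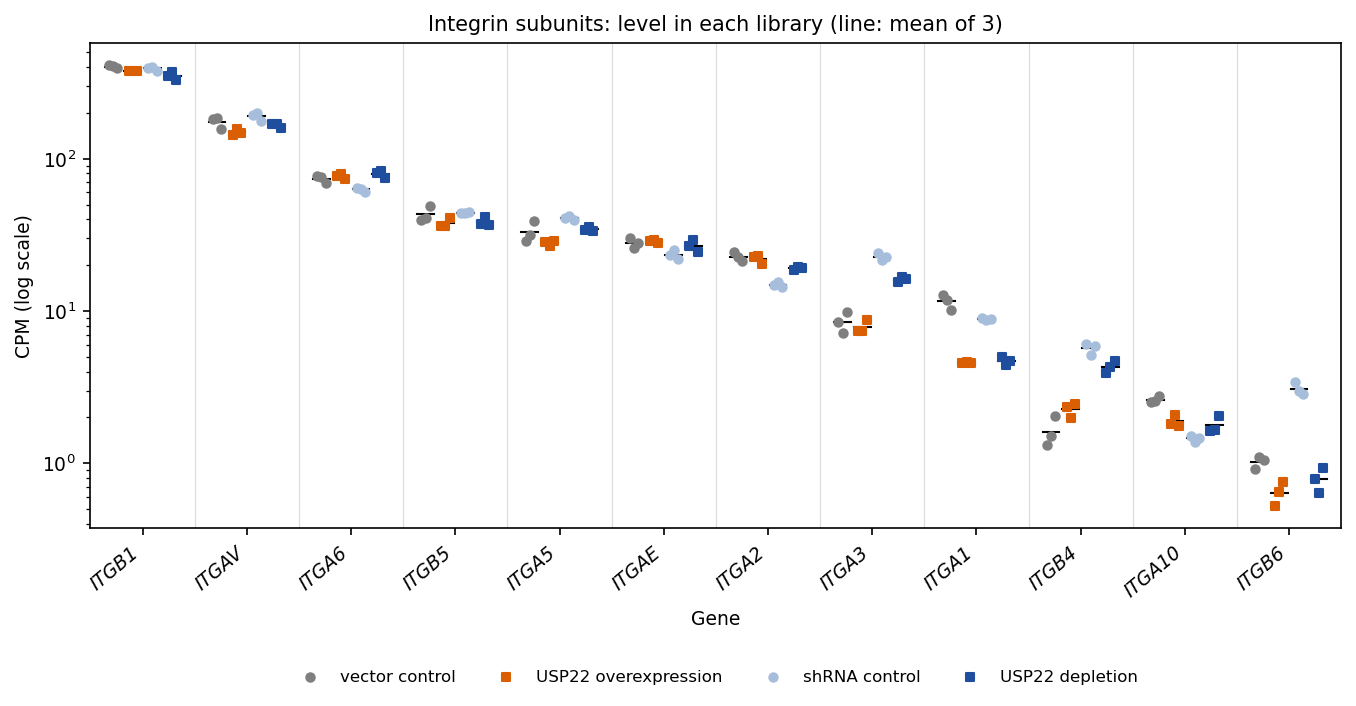
The vertical axis is CPM on a log scale and each symbol is 1 library of an integrin gene, with a line at the mean of the 3 libraries of a group. ITGA1 drops to about the same level in both treated groups, ITGB6 stands far higher in the shRNA control than elsewhere, and ITGB1 hardly moves.

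Of 24 integrin heterodimers listed, 15 had both subunits described. In those with ITGB1 the alpha subunit was the lower by CPM per kb, for ITGA1 0.625 in the vector control, 0.247 after overexpression, 0.476 in the shRNA control and 0.253 after depletion, and for ITGA6 11.3, 11.8, 9.61 and 12.2. ITGB6 was the lower subunit of the alpha V beta 6 pair, at 0.218, 0.136, 0.655 and 0.168 CPM per kb.

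The controls differed from each other for much of the set. Of the 57 genes, 40 differed between the shRNA control and the vector control (70.2%), 26 higher and 14 lower in the shRNA control, against 43% of all genes tested (21.7% higher and 21.3% lower) and 60.4% of the protein-coding genes; 17 of the 40 differed 2-fold or more. COL27A1 stood 11.3-fold higher in the shRNA control (log2 change 3.50, edgeR adjusted p = 2.63e-10), COL5A1 6.65-fold, ITGB4 3.54-fold and COL6A2 3.51-fold. COL9A2 stood at 0.259 of the vector control level, LAMA1 at 0.368 and FN1 at 0.384. The control cells differ in construct and in doxycycline, which cannot be told apart here. The control comparison shares its libraries with both USP22 comparisons, so its values are only set beside theirs. Of the 26 genes higher in the shRNA control, 14 fell with depletion, LAMA5, COL5A1, COL6A1, COL12A1 and ITGB6 among them, 2 rose (COL4A3 and LAMC3) and 10 were not called. Of the 14 lower there, 4 rose with depletion (FN1, ITGA2, ITGA6 and LAMA1), 4 fell (COL26A1, COL3A1, ITGA1 and LAMA3) and 6 were not called.

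Genes that work with these proteins were described from lists with 157 entries. Of 27 tested enzymes that fold, modify and crosslink collagen, 2 rose and 2 fell with overexpression (14.8%) and 1 rose and 7 fell with depletion (29.6%), where 4.11% and 19.8% of all genes tested and 6.59% and 30.6% of the protein-coding genes were called. The median log2 changes were -0.08 and -0.07. TLL1 rose with overexpression from 64.5 to 117 CPM (log2 change 0.86, edgeR adjusted p = 1.09e-06). PLOD2, a lysyl hydroxylase, rose with overexpression from 0.89 to 1.87 CPM (1.07, edgeR adjusted p = 0.0027). With depletion PLOD2 fell from 1.6 to 1.07 CPM (-0.59, edgeR adjusted p = 0.0266). P3H2, a prolyl hydroxylase, fell with overexpression from 1.19 to 0.579 CPM (-1.04, edgeR adjusted p = 0.00861). ADAMTS3, a procollagen protease, fell with depletion (-0.74, edgeR adjusted p = 8.72e-05).

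In the complex that links integrins to actin, most calls were falls. Of its 34 tested genes none rose and 5 fell with overexpression (14.7%), and 3 rose and 15 fell with depletion (52.9%). The medians were -0.15 and -0.25. Among all genes tested 4.11% and 19.8% were called, and among the protein-coding genes 6.59% and 30.6%. FLNA, which encodes the actin crosslinker filamin A, fell from 696 to 406 CPM with overexpression (log2 change -0.78, edgeR adjusted p = 8.71e-05) and from 836 to 414 CPM with depletion (-1.01, edgeR adjusted p = 1.2e-06). FERMT2, which encodes the integrin activator kindlin-2, fell with overexpression (-0.42, edgeR adjusted p = 0.00233), and FERMT1, which encodes kindlin-1, rose with depletion (0.39, edgeR adjusted p = 0.000364). ZYX, which encodes the adhesion protein zyxin, fell with depletion (-0.69, edgeR adjusted p = 0.000154). PARVA had larger log2 changes than FLNA, at low levels. It fell from 1.11 to 0.404 CPM with overexpression (-1.46, edgeR adjusted p = 0.0357) and from 0.162 to 0.0137 CPM with depletion (-3.36, edgeR adjusted p = 0.00454).

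Of 35 tested genes for other matrix glycoproteins and proteoglycans, 2 rose and 3 fell with overexpression (14.3%) and 4 rose and 10 fell with depletion (40%). The medians were -0.15 and -0.16. Among all genes tested 4.11% and 19.8% were called, and among the protein-coding genes 6.59% and 30.6%. THBS1 had the largest fall of these with overexpression, from 118 to 33.5 CPM (log2 change -1.81, edgeR adjusted p = 1.7e-10). FRAS1, of the basement membrane, also fell (-1.36, edgeR adjusted p = 2.91e-08), as did LTBP1, which binds latent TGF beta (-1.04, edgeR adjusted p = 1.62e-05). The genes that rose with overexpression were THBS2 and LTBP2 (0.69 and 0.41, edgeR adjusted p = 0.0168 and 0.0257). SDC2 rose with depletion from 22.3 to 28.3 CPM (0.35, edgeR adjusted p = 0.00518). CCN1, a matricellular protein, fell with depletion from 16.3 to 7.62 CPM (-1.10, edgeR adjusted p = 3.8e-07). Of 13 other matrix receptors, none rose and 1 fell with overexpression (7.69%) and 2 rose and 3 fell with depletion (38.5%). These shares lie near the 6.59% and 30.6% of the protein-coding genes, and the medians were -0.10 and -0.12. DDR1 and DDR2, both collagen receptor kinases, went opposite ways with depletion, DDR1 from 165 to 90.9 CPM (-0.86, edgeR adjusted p = 7.08e-06) and DDR2 from 6.52 to 11.3 CPM (0.80, edgeR adjusted p = 1.8e-05).

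Of 25 tested matrix proteases and inhibitors, 1 rose and 5 fell with overexpression (24%) and 2 rose and 8 fell with depletion (40%). The medians were -0.15 and -0.20. Among all genes tested 4.11% and 19.8% were called, and among the protein-coding genes 6.59% and 30.6%. ADAMTS1, a protease of proteoglycans, fell with depletion from 569 to 218 CPM (log2 change -1.39, edgeR adjusted p = 1.71e-10). MMP16, a membrane-bound matrix metalloproteinase, rose from 68.2 to 164 CPM (1.27, edgeR adjusted p = 6.63e-07). TIMP2, an inhibitor of such proteases, fell from 35.3 to 20.4 CPM (-0.79, edgeR adjusted p = 5.5e-07). MMP15 fell with overexpression from 68 to 49.3 CPM (-0.46, edgeR adjusted p = 0.00695). Larger falls there came at low levels, for MMP10 from 1.28 to 0.18 CPM (-2.83, edgeR adjusted p = 0.000215) and for MMP13 from 2.78 to 1.37 CPM (-1.02, 0.00437).

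The remaining 27 of the 84 genes, 16 collagens, 8 integrins and 3 laminins, were below the CPM rule. Just outside it was ITGA11, at 0.5 CPM or more in 2 libraries, and just inside it were ITGAD in 4 libraries, ITGB8 in 6 and ITGA2B, COL13A1 and COL27A1 in 7 each.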

How the data were processed

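RNA was isolated from 12 LNCaP libraries with an RNeasy kit and sequenced after TruSeq Stranded Total RNA preparation, per the labels' protocols. The authors deposited 1 table of raw read counts per Ensembl gene ID, with no normalization. Per the submitters' processing notes, hg19, STAR 2.5.2a, DESeq2 1.14.1 and featureCounts 1.5.0-p3 were used. How strand and multiply mapped reads were handled, and the annotation release, is not given in the sources used here. Reads of overlapping genes may therefore be misassigned.

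Groups, replicate numbers and columns were matched by label. Symbols, gene types and exonic lengths came from GENCODE 29 by gene ID, each length being that of all annotated exons of the gene together. Member coordinates are not printed, since that annotation is of another build, except those of the RefSeq promoter table. The latter held 44 of the 57 described genes.

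The test was edgeR 4.0.16 in R 4.3.3: filterByExpr by group, TMM scaling, glmQLFit on all 4 groups (8 residual degrees of freedom) and glmQLFTest, with Benjamini-Hochberg adjustment over 26076 genes and a threshold of 0.05. The same test gave the difference of the effects and the comparison of the controls. CPM used TMM-scaled library sizes. Fold changes and SEs are on the log2 scale. The procedure was tested on simulated data. No replicate repeated another within counting noise. The values of 1 member are not reported here.

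Library values are given for up to 10 called members of each comparison with the largest changes and a mean of 1 CPM or more, for FN1 and for the 5 highest members per kb. From each list, up to 3 genes per direction with the largest changes were eligible to be named, and not all of these are named. The members and lists were chosen with earlier results of these data known. Alternatives were RLE scaling, other filters, DESeq2 1.42.0, limma 3.58.1 voom, a replicate block, a fit of just the 6 libraries compared, an adjusted p under 0.01 and leaving out each library.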

Additional observations from a re-analysis of the deposited data

Results flagged for a closer look

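For 15 of the 57 genes the depletion effect differed from the overexpression effect by edgeR's quasi-likelihood test of the difference itself (adjusted p under 0.05 over all genes, 12 libraries). Values are the depletion log2 fold change minus the overexpression one, and the controls of the comparisons also differ from each other.

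The laminins gave 4 of these. LAMA1 had a difference of 1.12 (edgeR adjusted p = 8.95e-05), LAMA5 of -1.20 (0.000411) and LAMC1 of -0.71 (6.55e-05), while LAMA3, which fell in both comparisons, had one of -0.36 (0.00644). FN1 had a difference of 0.60 (edgeR adjusted p = 4.99e-05).

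Among the collagens, COL5A1 had the largest difference, -1.53 (edgeR adjusted p = 0.000342). COL27A1 had one of -0.92 (0.023), COL3A1 of -0.85 (0.0101) and COL9A2 of 0.88 (0.0162).

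Among the integrins, ITGB6 had a difference of -1.29 (edgeR adjusted p = 0.0035) and ITGB4 of -0.90 (0.00947). ITGA10 had one of 0.74 (0.0156), ITGA1 of 0.43 (0.0401), ITGA2 of 0.41 (0.0169) and ITGA6 of 0.29 (0.0492). Of the 15 genes, COL27A1, ITGA1, ITGA2 and ITGA6 lost this call under 1 or more alternatives, with an adjusted p of up to 0.0965, 0.125, 0.0622 and 0.154.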

How the results depend on the processing

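Of the genes called, 6 of 10 with overexpression, 18 of 27 with depletion, 35 of 40 between the controls and 11 of 15 for the difference of effects kept their direction and call under every alternative fitted, the 0.01 threshold aside. No called value changed direction. The number of genes higher with overexpression, 1, was 2 with DESeq2 or without a filter, 0 with limma voom, with only the 6 libraries compared and at an adjusted p under 0.01. The number lower, 9, was 14 with no filter, 15 with DESeq2 and 6 with only the 6 libraries compared. The 7 genes with a higher difference of effects were 2 at an adjusted p under 0.01. Causes were not tested.

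Leaving out each library in turn gave 0 to 3 higher and 6 to 13 lower with overexpression, and 5 to 8 higher and 14 to 26 lower with depletion. Between the controls it gave 24 to 29 higher and 12 to 14 lower, and for the difference of effects 4 to 7 higher and 7 to 12 lower. The highest depletion counts came without vector control replicate 3.

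With the replicate number as a block the counts were 1 higher and 11 lower with overexpression, 5 and 23 with depletion, 26 and 14 between the controls and 7 and 8 for the difference of effects. Same-numbered libraries did not deviate together, with correlations between -0.02 and 0.08, and not every library correlated best with its own number, so the numbers were not taken as pairs.

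No scaling moved the median of all genes by 0.1 or more on the log2 scale. Counting error is largest for members near 0.5 CPM.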
